A study of Mus musculus with 10 samples.

Results

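The BCL2 family decides whether the outer mitochondrial membrane is opened in apoptosis, and 7 of its genes are described here in mouse teratomas that differ in the tumour suppressor VHL. The 7 genes are the survival members Bcl2l1, Bcl2, Bcl2l2 and Mcl1 and the pore formers Bax, Bak1 and Bok. They were looked up by symbol among probe sets whose annotation names exactly 1 gene, and each was read at its probe set with the highest mean. In this way 6 of the 7 were found among the 18820 genes tested, and Bax was not analysed here.

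Teratomas are growths in which pluripotent cells, placed in a host, turn into a mixture of tissues. All 10 tumours grew under the skin of female nu/nu mice, a strain without a thymus that still has macrophages and other innate cells, from J1 embryonic stem cells of the Sv/129 background. In every group the stem cells lacked mouse Vhl and carried a human VHL cDNA: the P81S form in 4 tumours, the R167Q form in 3 and the wildtype form in 3. The labels call the P81S tumours apoptosis-resistant and the R167Q and wildtype tumours apoptotic. The design text states that the P81S tumours are 2 replicates of each of 2 clones. Which arrays share a clone, the number of clones behind the other groups, the promoter of the cDNA, the ages of the hosts and whether tumours shared a host are not given in the sources used here.

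Survival proteins of this family sit at mitochondria and bind the pore formers BAX and BAK and the BH3-only proteins that set them off. When the survival proteins are outweighed, BAX and BAK form pores, cytochrome c leaves the mitochondria and caspases are activated. BOK can form pores with less dependence on the survival proteins. BCL-XL, the long product of Bcl2l1, is prominent in neurons and red cell precursors, and MCL1 is a short-lived protein on which many dividing and blood-forming cells depend.

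Each array gave 1 log2 expression value per probe set, so a difference of 1 is a factor of 2. The arrays had medians of 6.97 to 7.11 log2, taken over 35556 probe sets. A difference was called when limma's p, adjusted over all 18820 genes by the Benjamini-Hochberg method, was under 0.05. Levels of different genes are not compared, since probe sets differ in brightness, and precision is limited by how few arrays there are. The p-values measure only the spread between these tumours. The 4 P81S tumours came from 2 clones but entered the test as separate tumours, so its p-values can be too small. For no group does a source state that the tumours came from separate cultures. Signal over background is unknown, so these levels cannot show whether a tissue was present or absent. List means of cartilage, bone and matrix markers were 8.01 to 9.05 log2 in P81S, 8.53 to 8.94 log2 in R167Q and 8.42 to 8.72 log2 in wildtype. Those of gut and glandular epithelium were 6.48 to 8.13 log2 in P81S, 6.91 to 7.67 log2 in R167Q and 7.01 to 7.23 log2 in wildtype. P81S replicate 1 stood apart in epithelium, with a squamous list mean of 9.31 log2 against 6.88 to 7.28 log2 in the other P81S tumours.

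The survival genes that were called moved in opposite directions in P81S tumours, and neither measured pore former passed the test. Whether survival genes and pore formers differ from each other was not tested. Set against the average of the R167Q and wildtype means, Bcl2l1 and Bcl2 rose, Mcl1 fell, and Bcl2l2, Bak1 and Bok did not pass. That is 2 of 6 members called higher where 18.3% of all genes were, and 1 of 6 called lower where 17.4% were. In either direction 3 of 6 members were called, against 35.7% of all genes, so the count itself does not set the family apart. The median member differed by 0.29 log2, against 0.02 log2 for all genes tested, a median over rises and falls alike. By size in either direction, 24.6% of all genes changed more than Bcl2l1, 34.8% more than Bcl2l2 and 43.4% more than Bok. The shares were 43.7% for Mcl1, 47.6% for Bcl2 and 78.6% for Bak1. Of the 3 calls, that of Bcl2l1 was kept in all 24 alternative analyses of this comparison, that of Mcl1 in 18 and that of Bcl2 in 8.

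**Figure D1:**
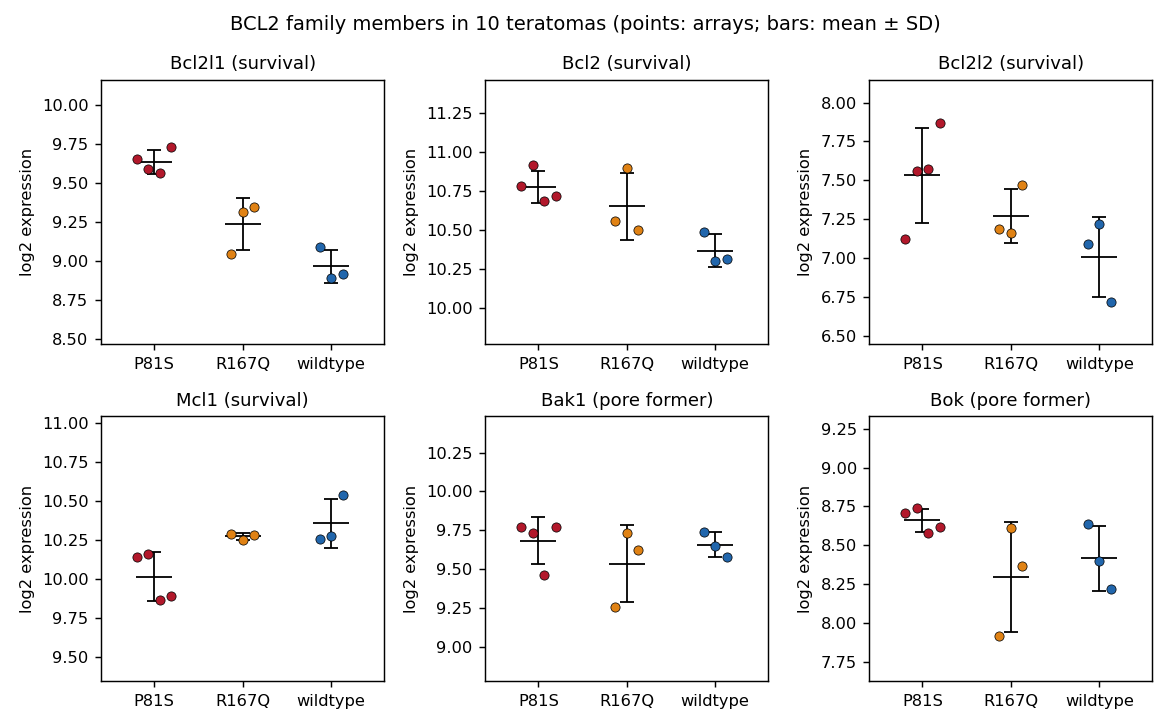
Log2 expression (y axis) of 6 BCL2 family members in P81S (n = 4), R167Q (n = 3) and wildtype (n = 3) teratomas. Points are arrays, bars are the mean ± SD, and each panel spans the same log2 range. Bcl2l1 in P81S lies above every other array at 9.57 to 9.73, Mcl1 lies below every other array at 9.87 to 10.16, and Bak1 overlaps in all groups.

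Bcl2l1 encodes BCL-XL, which holds BAX and BAK in check, and by alternative splicing also a short form that opposes it. A single probe set, matched to 10 transcript accessions, gave 1 value per array, and which of these forms it reads was not checked. Its levels were 9.66, 9.59, 9.57 and 9.73 log2 in P81S replicates 1 to 4, against 9.04, 9.31 and 9.35 log2 in R167Q replicates 1 to 3 and 9.09, 8.89 and 8.92 log2 in wildtype replicates 1 to 3. All 4 P81S tumours were above all 6 other tumours, which held for 13.7% of all genes. Bcl2l1 averaged 9.64 ± 0.08 log2 in P81S (SD, n = 4), 9.24 ± 0.17 log2 in R167Q (SD, n = 3) and 8.96 ± 0.11 log2 in wildtype (SD, n = 3).

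Bcl2l1 rose in P81S 1.45-fold over the average of the other genotypes (log2 0.54 ± 0.09, SE, limma adjusted p = 0.00107). Changes larger than this, in either direction, were found for 24.6% of all genes. Against wildtype alone it rose 1.59-fold (log2 0.67 ± 0.11, SE, limma adjusted p = 0.000819), with a 95% interval of 0.43 to 0.91. Against R167Q alone it rose 1.32-fold (log2 0.40 ± 0.11, SE, limma adjusted p = 0.0232), with an interval of 0.16 to 0.64. The call against R167Q was lost without P81S replicate 4 (adjusted p = 0.0568) or without R167Q replicate 1 (adjusted p = 0.115), and its difference was then 0.37 and 0.31 log2.

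Mcl1 encodes a survival protein that binds BAK and that the BH3-only protein NOXA targets. It read 10.14, 10.16, 9.87 and 9.89 log2 in P81S replicates 1 to 4, against 10.29, 10.25 and 10.28 log2 in R167Q replicates 1 to 3 and 10.26, 10.27 and 10.54 log2 in wildtype replicates 1 to 3. Every P81S tumour was below every other tumour, as for 12.7% of all genes, and P81S replicates 3 and 4 were the lowest of all. The group means were 10.01 ± 0.16 log2 in P81S (SD, n = 4), 10.27 ± 0.02 log2 in R167Q (SD, n = 3) and 10.36 ± 0.16 log2 in wildtype (SD, n = 3).

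Mcl1 fell in P81S by 0.30 ± 0.09 on the log2 scale (SE, 1.23-fold, limma adjusted p = 0.0257) against the average of the other genotypes. Against wildtype it fell by 0.34 ± 0.11 on the log2 scale (SE, 1.27-fold, limma adjusted p = 0.0312). That call was lost without P81S replicate 3 (adjusted p = 0.0865) or 4 (adjusted p = 0.074). It was lost as well without wildtype replicate 2 (adjusted p = 0.0527) or 3 (adjusted p = 0.136). A fit of only P81S and wildtype arrays also ended it (adjusted p = 0.0612), as did the replicate number as a block (adjusted p = 0.129). Of 25 alternatives 18 kept the call, and the difference from wildtype ran from -0.48 to -0.21 log2. Against R167Q the difference was -0.26 ± 0.11 log2 (SE), with an interval of -0.50 to -0.02 before adjustment, and did not pass (limma adjusted p = 0.119). The call against the average was lost when P81S replicate 3 (adjusted p = 0.0892), P81S replicate 4 (adjusted p = 0.076), R167Q replicate 1 (adjusted p = 0.0512) or wildtype replicate 3 (adjusted p = 0.053) was left out. Without both P81S replicates 3 and 4 the difference was -0.16 log2.

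Bcl2l1 and Mcl1 were the members whose P81S arrays did not overlap with either other genotype, 2 of 6 where 26.4% of all genes did not, and they moved in opposite directions, so the sequences just before their starts are shown for comparison. RefSeq (GRCm38.p6) windows were found for all 7 genes, 9 windows in all, of which Bcl2l1 had 3. The Bcl2l1 window shown is the one farthest upstream of its 3, chr2:152831729-152831978 on the minus strand, and the Mcl1 window is chr3:95658471-95658720 on the plus strand. Both lie inside the outer bounds of their genes in the RefSeq table, so the table also places parts of both genes farther upstream. Each is 250 bases long, ends at the base before the start, and runs 5′ to 3′. Capitals mark ACGTG or GCGTG on either strand, the core letters that hypoxia-inducible factors, the proteins VHL marks for destruction, are known to bind.
Bcl2l1: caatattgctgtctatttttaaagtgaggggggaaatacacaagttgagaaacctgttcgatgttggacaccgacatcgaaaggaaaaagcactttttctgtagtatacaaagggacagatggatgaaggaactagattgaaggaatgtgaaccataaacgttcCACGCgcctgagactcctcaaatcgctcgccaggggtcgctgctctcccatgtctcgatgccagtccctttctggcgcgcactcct
Mcl1: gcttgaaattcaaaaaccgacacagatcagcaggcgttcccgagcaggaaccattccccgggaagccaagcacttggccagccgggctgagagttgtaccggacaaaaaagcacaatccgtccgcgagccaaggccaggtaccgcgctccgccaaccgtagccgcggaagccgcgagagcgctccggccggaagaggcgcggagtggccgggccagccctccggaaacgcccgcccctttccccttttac

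The Bcl2l1 window held these letters once, on the opposite strand, starting at position -86 from the start, and the Mcl1 window did not hold them. The other 2 Bcl2l1 windows held 0 matches, with a GC content of 48.4% and 53.2% and 0 and 11 CG dinucleotides. Of all 32851 windows of this length, 38.6% held at least 1 match, as did 2 of the 9 windows of the 7 genes. GC content was 47.6% in the Bcl2l1 window and 64.4% in the Mcl1 window, against a median of 52.4% over all windows. The CG dinucleotide occurred 12 times in the Bcl2l1 window and 26 times in the Mcl1 window, against a median of 6. These counts describe the letters of the windows and are no measure of binding.

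Bcl2 encodes the founding survival protein of the family. Its values were 10.78, 10.92, 10.69 and 10.72 log2 in P81S replicates 1 to 4, against 10.56, 10.90 and 10.50 log2 in R167Q replicates 1 to 3 and 10.49, 10.30 and 10.31 log2 in wildtype replicates 1 to 3. P81S lay wholly above wildtype, as did 19.9% of all genes, and overlapped with R167Q, whose replicate 2 was within the P81S range. Bcl2 rose in P81S 1.33-fold over wildtype (log2 0.41 ± 0.11, SE, limma adjusted p = 0.0148). This call was lost without wildtype replicate 2 (adjusted p = 0.0619) or wildtype replicate 3 (adjusted p = 0.0566).

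Against R167Q, Bcl2 differed by 0.12 ± 0.11 log2 (SE, limma adjusted p = 0.491), with an interval of -0.12 to 0.37. That difference was 0.25 log2 without R167Q replicate 2, 0.046 log2 without R167Q replicate 3, 0.077 log2 without R167Q replicate 1 or P81S replicate 2, and 0.23 log2 with the mean of its probe sets, and it passed in none of these. Against the average of both it rose 1.20-fold (log2 0.27 ± 0.09, SE), at a limma adjusted p of 0.0473. Quantile normalization (adjusted p = 0.0759) and median centring (adjusted p = 0.0558) each ended that call, as did eBayes without a trend (adjusted p = 0.069) or made robust (adjusted p = 0.0501) and leaving out any P81S tumour, R167Q replicate 1 or 3, or wildtype replicate 2 or 3 (adjusted p up to 0.125). With clones as a random block, the call was lost when P81S replicates 1 and 2 shared a clone (adjusted p = 0.051). It held under the other 2 pairings, and Bcl2l1 and Mcl1 were called under all 3. The block applied a shared correlation to all genes. It took each R167Q and wildtype tumour as its own clone, although their clones are not known. Calls over all genes went from 6713 to 6562 with replicates 1 and 2 together, 7430 with 1 and 3, and 6810 with 1 and 4. A call kept there does not show that a member is free of differences between clones. A dimmer probe set of Bcl2 read 4.83 to 5.46 log2 in P81S, 4.71 to 4.89 log2 in R167Q and 4.58 to 4.90 log2 in wildtype. Its difference from the average was 0.35 ± 0.13 log2 (SE) and did not pass when all 21218 probe sets with 1 gene were tested (limma adjusted p = 0.0601).

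Bcl2l2 encodes BCL-W, a survival protein known from neurons and the testis. It read 7.12, 7.56, 7.57 and 7.87 log2 in P81S replicates 1 to 4, against 7.18, 7.16 and 7.47 log2 in R167Q replicates 1 to 3 and 7.09, 7.22 and 6.72 log2 in wildtype replicates 1 to 3. P81S replicate 1 lay within the range of wildtype, and the other 3 P81S tumours were above all 6 remaining tumours. The difference from the average was 0.39 ± 0.16 log2 (SE, limma adjusted p = 0.0902), with an interval of 0.03 to 0.75 before adjustment. Without P81S replicate 1 the difference was 0.53 log2 and passed (limma adjusted p = 0.0177). Without both P81S replicates 3 and 4 it was 0.20 log2 and did not pass.

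Bak1 encodes BAK, a pore former that sits in the outer mitochondrial membrane in healthy cells. Its levels were 9.77, 9.74, 9.46 and 9.77 log2 in P81S replicates 1 to 4, against 9.26, 9.73 and 9.62 log2 in R167Q replicates 1 to 3 and 9.74, 9.65 and 9.58 log2 in wildtype replicates 1 to 3. The 3 groups overlapped, and the lowest tumour of all was R167Q replicate 1. Bak1 differed between P81S and the average by 0.09 ± 0.11 log2 (SE, limma adjusted p = 0.596). The difference was 0.017 log2 without R167Q replicate 1, 0.14 log2 without R167Q replicate 2 and 0.16 log2 without P81S replicate 3, and passed in none of these. The 95% interval of -0.16 to 0.33 bounds the difference at this number of arrays and does not show that it is absent. A second probe set of Bak1 differed by -0.13 ± 0.13 log2 (SE, limma adjusted p = 0.486 over all probe sets with 1 gene), so the 2 probe sets disagreed in sign and neither passed.

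Bok encodes a pore former that is kept low by protein turnover in many cells. It read 8.71, 8.74, 8.58 and 8.62 log2 in P81S replicates 1 to 4, against 7.91, 8.61 and 8.36 log2 in R167Q replicates 1 to 3 and 8.63, 8.40 and 8.22 log2 in wildtype replicates 1 to 3. P81S tumours were close together and at the upper end, but R167Q replicate 2 and wildtype replicate 1 reached their range. Bok differed by 0.30 ± 0.14 log2 from the average (SE, interval -0.01 to 0.62) and did not pass (limma adjusted p = 0.125). Without R167Q replicate 2 the difference was 0.38 log2 and passed (limma adjusted p = 0.0496). It passed in none of the other 23 alternatives, and was 0.21 log2 without R167Q replicate 1 (limma adjusted p = 0.228).

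**Figure D2:**
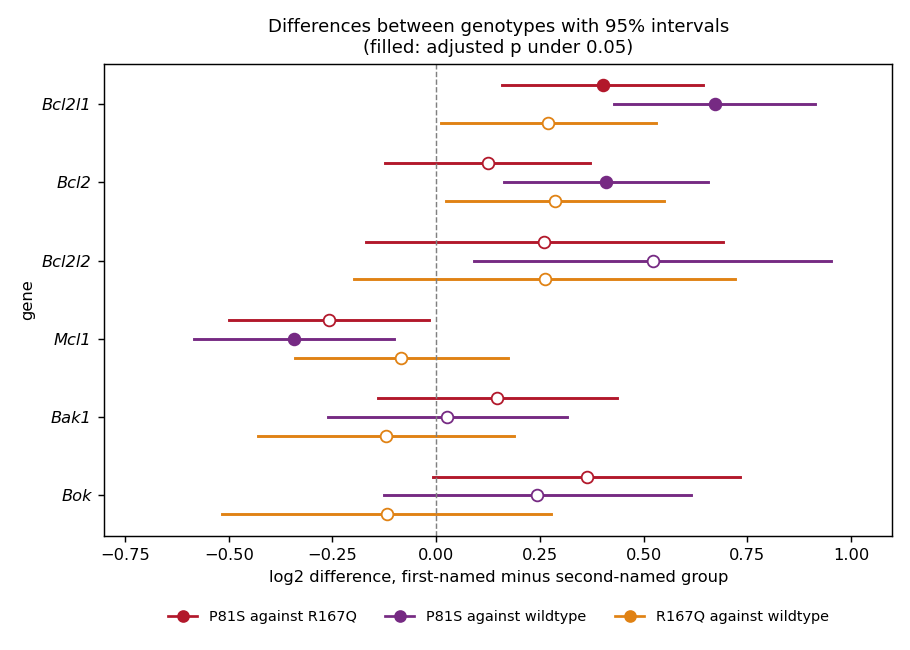
Log2 differences (x axis) of 6 BCL2 family members (y axis) for P81S minus R167Q, P81S minus wildtype and R167Q minus wildtype. Lines are 95% intervals before adjustment, and filled points have a limma adjusted p under 0.05. Bcl2l1 is filled in both P81S comparisons (0.40 and 0.67), Bcl2 (0.41) and Mcl1 (-0.34) against wildtype, and no point is filled for R167Q minus wildtype.

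Taken genotype by genotype, P81S against wildtype gave 2 members higher and 1 lower, 3 of 6 where 34.7% of all genes were called. Against R167Q it gave 1 of 6, Bcl2l1, where 22.5% of all genes were called. These comparisons share the P81S tumours, so their values for a member are not independent of each other. Group means of Bcl2l1, Bcl2 and Bcl2l2 had the order P81S, R167Q, wildtype from high to low, and those of Mcl1 the reverse. For Bok and Bak1, R167Q was lowest. Of these neighbouring steps, that between P81S and R167Q for Bcl2l1 passed the test and the others did not.

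Between R167Q and wildtype tumours, which share the apoptotic label, no member passed the test. limma called 0 of 6 members between them, where 0.0903% of all genes were called, and 2 of 6 had an unadjusted p under 0.05, as did 9.73% of all genes. These were Bcl2l1, at 0.27 ± 0.12 log2 higher in R167Q (SE, limma adjusted p = 0.499), and Bcl2, at 0.29 ± 0.12 log2 higher (SE, limma adjusted p = 0.489). The Bcl2 difference was 0.16 log2 without R167Q replicate 2 and 0.16 log2 with the mean of its probe sets. The R167Q arrays of Bcl2 did not overlap with wildtype, as for 6.93% of all genes, with 10.50 log2 in the lowest R167Q tumour and 10.49 log2 in the highest wildtype tumour.

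Genes around the family were counted in the same comparison of P81S with the average of R167Q and wildtype, in which 35.7% of all genes were called. BH3-only genes, whose products trigger the pore formers or block the survival proteins, gave 1 higher and 0 lower among 7 measured, with a median of -0.27 log2. The one that rose was Hrk, which encodes a BH3-only protein of neurons that binds BCL2 and BCL-XL. Hrk averaged 7.68 ± 0.31 log2 in P81S (SD, n = 4), 7.05 ± 0.17 log2 in R167Q (SD, n = 3) and 7.02 ± 0.14 log2 in wildtype (SD, n = 3), a 1.56-fold rise (log2 0.64 ± 0.15, SE, limma adjusted p = 0.00705).

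Bcl2l11, which encodes the broad initiator BIM, differed by -0.37 log2 (limma adjusted p = 0.0779), and Pmaip1, which encodes the MCL1-binding NOXA, by -0.42 log2 (limma adjusted p = 0.109). Neither passed, and in each case P81S overlapped with both other groups. Other relatives of the family gave 0 higher and 1 lower among 8 measured, with a median of -0.05 log2. Bcl2l12 fell to 7.34 ± 0.18 log2 in P81S (SD, n = 4), against 7.78 ± 0.09 log2 in R167Q (SD, n = 3) and 7.71 ± 0.16 log2 in wildtype (SD, n = 3), with a limma adjusted p of 0.0225. Bnip3, a mitophagy receptor known to be induced by hypoxia, differed by 0.30 log2 from the average and did not pass (limma adjusted p = 0.115). It averaged 11.84 ± 0.18 log2 in P81S (SD, n = 4), 11.82 ± 0.34 log2 in R167Q (SD, n = 3) and 11.24 ± 0.23 log2 in wildtype (SD, n = 3), and rose in P81S against wildtype (limma adjusted p = 0.0157). Bcl2l13 differed by -0.22 log2 from the average (limma adjusted p = 0.12).

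Binding partners and regulators of turnover gave 4 higher and 0 lower among 9 measured, with a median of 0.14 log2. Fkbp8, which encodes an anchor of BCL2 and BCL-XL at mitochondria, rose 1.35-fold to 11.32 ± 0.10 log2 in P81S (SD, n = 4), against 10.92 ± 0.08 log2 in R167Q (SD, n = 3) and 10.84 ± 0.02 log2 in wildtype (SD, n = 3), with a limma adjusted p of 0.000545. Tmbim6, which encodes BAX inhibitor-1 of the endoplasmic reticulum, rose by 0.34 log2 (limma adjusted p = 0.0155). Vdac3, a channel gene of the outer mitochondrial membrane, rose by 0.24 log2 (limma adjusted p = 0.0139), and Sh3glb1, which encodes a BAX-binding membrane-curving protein, by 0.18 log2 (limma adjusted p = 0.0384). The 5 others, among them the MCL1 ubiquitin ligase genes Huwe1 and Fbxw7 and its deubiquitinase gene Usp9x, lay between -0.19 and 0.14 log2 and did not pass.

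Downstream of the pore, 0 rose and 1 fell among 5 measured, with a median of -0.09 log2. Aifm1, which encodes a flavoprotein of the intermembrane space, fell 1.47-fold to 8.91 ± 0.13 log2 in P81S (SD, n = 4), against 9.38 ± 0.13 log2 in R167Q (SD, n = 3) and 9.56 ± 0.18 log2 in wildtype (SD, n = 3), with a limma adjusted p of 0.00157. Cycs, the cytochrome c gene, differed by -0.09 log2 (limma adjusted p = 0.226) and the initiator caspase gene Casp9 by -0.20 log2 (limma adjusted p = 0.2).

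Among 9 measured transcription factors known to act on genes of the family, 2 rose and 2 fell, with a median of 0.06 log2. E2f1, which drives entry into S phase, fell 1.93-fold to 7.98 ± 0.17 log2 in P81S (SD, n = 4), against 8.92 ± 0.19 log2 in R167Q (SD, n = 3) and 8.93 ± 0.13 log2 in wildtype (SD, n = 3), with a limma adjusted p of 0.000142. Stat5b and Stat5a, paralogous cytokine-signalling factors known to activate Bcl2l1, went opposite ways, by 0.35 log2 (limma adjusted p = 0.019) and -0.36 log2 (limma adjusted p = 0.032). Trp73, a relative of p53, rose by 0.37 log2 (limma adjusted p = 0.035).

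Against each genotype alone, 22.5% of all genes were called against R167Q and 34.7% against wildtype. Partners gave 1 of 9 calls against R167Q and 5 of 9 against wildtype, and transcription factors gave 2 of 9 and 4 of 9. The BH3-only, other relative and downstream lists each gave 1 call in each comparison, and whether any list differs between the comparisons was not tested. Hrk rose in both comparisons, the 1 call among 7 BH3-only genes in each. Fkbp8 rose and Aifm1 and E2f1 fell in both as well. Against R167Q, Bcl2l12 also fell and Trp73 rose. Against wildtype, Vdac3, Tmbim6, Sh3glb1, Bnip3, Stat5b and Foxo3 also rose, and Vdac2, which encodes the channel that holds BAK in the outer membrane, and Stat5a fell. Between R167Q and wildtype, limma called 0 genes of any of the 5 lists, with unadjusted p under 0.05 for 0 of 7 BH3-only genes, 1 of 8 other relatives, 1 of 9 partners, 0 of 5 downstream genes and 1 of 9 transcription factors, against 9.73% of all genes.

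**Figure D3:**
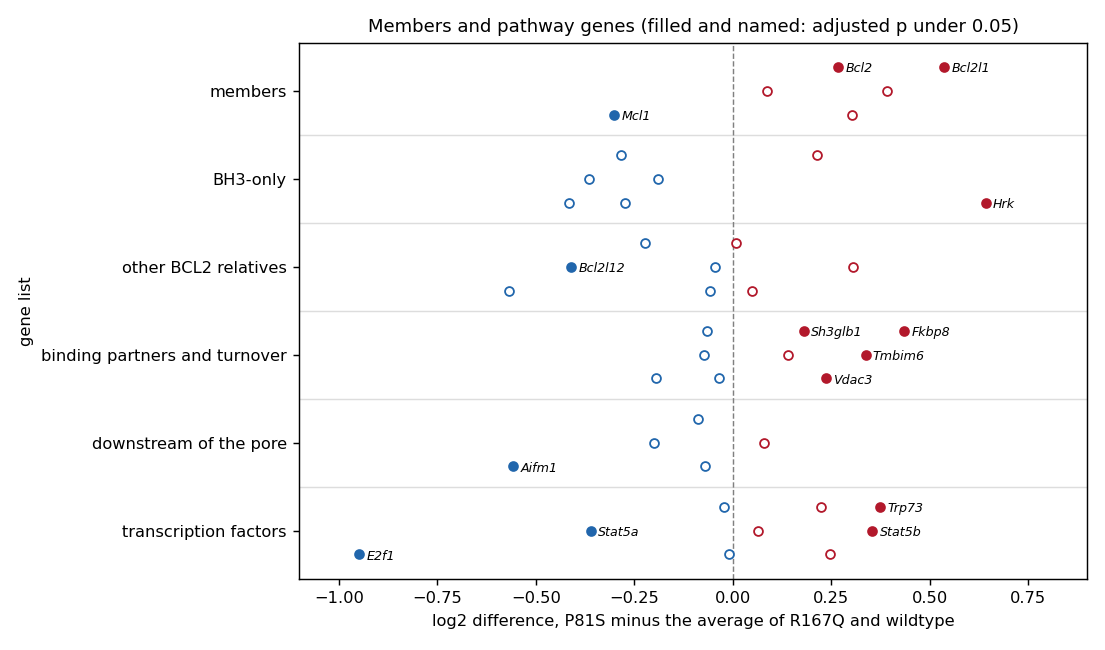
Log2 difference of P81S minus the average of R167Q and wildtype (x axis) for the 6 members and for 5 lists of related genes (y axis), 1 point per gene. Filled, named points have a limma adjusted p under 0.05. Members called lie between -0.30 (Mcl1) and 0.54 (Bcl2l1), and E2f1 lies farthest from 0 at -0.95.

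Levels of 3 marker lists moved with the same contrast, in which 18.3% of all genes were called higher and 17.4% lower. In bulk RNA, more cells of a type and more RNA per cell cannot be told apart. Of the measured neural markers, 7 of 7 rose in P81S, and the list mean was 11.84 to 12.19 log2 in P81S, 11.02 to 11.57 log2 in R167Q and 10.86 to 11.29 log2 in wildtype. Cell cycle markers fell in P81S, 7 of 7, with list means of 8.54 to 9.69 log2 in P81S, 10.30 to 10.59 log2 in R167Q and 10.62 to 10.96 log2 in wildtype. Pluripotency markers fell as well, 8 of 8, to 6.73 to 8.52 log2 in P81S, against 9.64 to 10.58 log2 in R167Q and 10.46 to 11.20 log2 in wildtype. The P81S range of each of these 3 lists lay outside the ranges of the other groups, as it did for Bcl2l1 and Mcl1, and the part of tissue make-up in the members' differences was not tested.

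For the other cell types, the list means of P81S overlapped with those of at least 1 other genotype. Of the squamous epithelium markers 2 of 8 rose in P81S, where 18.3% of all genes did. Their median difference was 0.79 log2, against 0.75 log2 for the neural list. Squamous means were 6.88 to 9.31 log2 in P81S, 6.71 to 7.04 log2 in R167Q and 6.56 to 7.06 log2 in wildtype. Skeletal muscle markers had a median difference of 0.49 log2 and 0 of 8 were called by limma. Endothelial means were 7.37 to 9.58 log2 in P81S, 8.51 to 9.02 log2 in R167Q and 7.80 to 8.93 log2 in wildtype. Among the endothelial markers 1 of 6 fell, where 17.4% of all genes did. Erythroid list means (4 of 7 markers measured) ran from 6.40 to 8.28 log2 in P81S, 6.50 to 8.20 log2 in R167Q and 5.97 to 6.18 log2 in wildtype, so both mutants lay above wildtype, with 0 markers called in P81S against the average by limma. Macrophage means (7 of 8 measured, 0 called) were 8.61 to 9.20 log2 in P81S, 8.67 to 9.29 log2 in R167Q and 8.47 to 8.81 log2 in wildtype. Neutrophil and lymphocyte markers (6 of 8 measured, 0 called) averaged 4.89 to 5.44 log2 in P81S, 5.14 to 5.47 log2 in R167Q and 5.10 to 5.70 log2 in wildtype. Y-linked transcripts of the donor cells, which were low in wildtype, averaged 8.42 to 9.28 log2 in P81S, 9.12 to 9.52 log2 in R167Q and 4.26 to 4.70 log2 in wildtype. All wildtype tumours were thus below all mutant tumours in this list. In comparisons that include wildtype, the VHL form and other differences between the donor cells cannot be told apart. In P81S against R167Q, the VHL form and differences between clones cannot be told apart either.

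**Figure D4:**
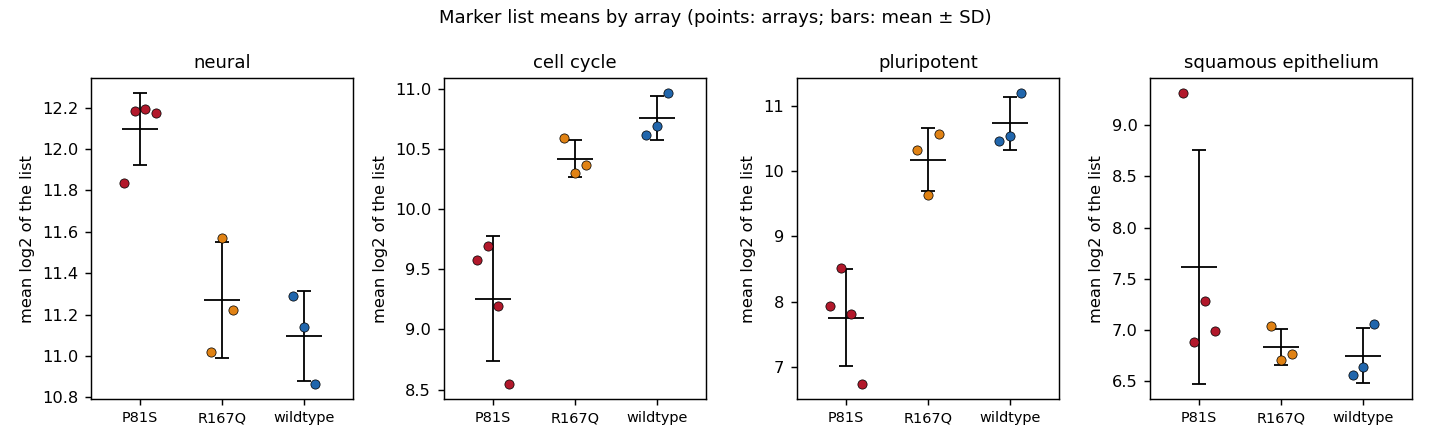
Mean log2 expression (y axis) of 4 marker lists in P81S (n = 4), R167Q (n = 3) and wildtype (n = 3) teratomas. Points are arrays and bars are the mean ± SD. Neural means are highest in P81S (11.84 to 12.19), cell cycle and pluripotency means are lowest there, and P81S replicate 1 stands apart in squamous epithelium at 9.31.

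The genes most like each called member over the 10 arrays were ranked by Pearson's r over all genes tested, as a description without a test, since the arrays share 3 genotypes. Closest to Bcl2l1 were Gpr158, an orphan receptor gene of the brain (r = 0.988), Grin2d, an NMDA receptor subunit gene (r = 0.987), and Arrb1, the beta-arrestin 1 gene (r = 0.986). Closest to Mcl1 were Nucks1, a nuclear substrate of kinases (r = 0.984), the ETS repressor gene Erf (r = 0.982) and Trip10, an adaptor of CDC42 (r = 0.977). Closest to Bcl2 were the small GTPase gene Rab10 (r = 0.959), Sh3glb1 (r = 0.949) and the deubiquitinase gene Mindy2 (r = 0.937).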

How the data were processed

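The deposited table holds log2 expression values, 1 per probe set and array, for which RMA and Partek are listed, with neither version nor step, per the submitters' processing notes. All 10 value columns were used. Names came from the platform annotation, in which 21218 probe sets have 1 gene; 21185 matched RefSeq (GRCm38.p6) by Entrez number and 0 symbols changed. Where a gene had several (1386 genes), the probe set with the highest mean was kept, giving 18820 genes. Probe sequences and scanner files were not used, so signal over background is unknown. If arrays were set to 1 distribution, a change in total RNA is removed.

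All 10 arrays entered 1 model with 3 group means and no block, fitted with limma 3.58.1 (lmFit, eBayes with a trend, two-sided; statmod 1.5.0, R 4.3.3) and tested on simulated data. Residual degrees of freedom numbered 7, with 3.85 added by the prior. P-values were adjusted over all genes of a contrast. Errors of differences are SE. Deviations of same-numbered replicates from their group means correlated at r from -0.28 to 0.21. Replicates with different numbers were not compared in this way, so whether numbers pair tumours is not known. Replicates correlated at r of 0.966 to 0.993 across genes.

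Members and lists were chosen with earlier results of these data known. Named were all members, up to 3 genes of each related list with the smallest p, genes completing counts of 5 or fewer, and 3 genes most like each called member. Listed genes without a probe set naming 1 gene, Bax among them, were not analysed here. Alternatives changed normalization, centring, dim genes, probe sets, variance model, arrays and blocks.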

Additional observations from a re-analysis of the deposited data

Results flagged for a closer look

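Of 21 genes examined in the 4 P81S tumours (6 members and 15 related genes), 3 had a tumour far from the other 3, and chance alone gives about 1 in 20. Bak1 in P81S replicate 3 was 9.46 log2, against 9.74 to 9.77 log2 in the other P81S tumours. Fkbp8 in P81S replicate 2 was 11.17 log2, against 11.36 to 11.38 log2 in the others. Vdac3 in P81S replicate 2 was 11.71 log2, against 11.63 to 11.64 log2 in the others.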

How the results depend on the processing

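The number of called members moved with single arrays. Against the average of R167Q and wildtype, 3 members were called, and leaving out single arrays gave 1 to 4; without both P81S replicates 3 and 4 it was 1 (Bcl2l1). Against wildtype, leaving out single arrays gave 1 to 4 in place of 3, with 1 without wildtype replicate 2 or 3. Against R167Q the count was 1, leaving out single arrays gave 0 to 1, and 0 stood without P81S replicate 4 or R167Q replicate 1 and without both P81S replicates 3 and 4. Quantile normalization, array weights and omission of both P81S replicates 1 and 2 each gave 2, by adding Mcl1. Between R167Q and wildtype every alternative gave 0. The replicate number as a block leaves P81S replicate 4 without weight, since no other array has its number. With that block, 1 member was called against the average and 0 against R167Q (Bcl2l1 adjusted p = 0.109). Whether the numbers pair the tumours is not known. Bak1, never called, changed sign: against the average, -0.024 log2 with the mean of its probe sets and -0.041 log2 with array weights; against R167Q, -0.036 log2 with the mean of its probe sets; against wildtype, -0.011 log2 with median centring, -0.012 log2 with the mean of its probe sets, -0.11 log2 with array weights, -0.0021 log2 with the replicate block, -0.042 log2 without both P81S replicates 1 and 2, and -0.0122 to 0.10 log2 without single arrays. Between R167Q and wildtype, Bak1 was 0.023 log2 with the mean of its probe sets, and without single arrays Bak1 ran from -0.22 to 0.018 log2, Mcl1 from -0.13 to 0.007 log2 and Bok from -0.28 to 0.072 log2. Calls over all genes against R167Q numbered 4234, but 2328 without R167Q replicate 1 and 2419 without both P81S replicates 3 and 4; between R167Q and wildtype they numbered 17, and 3 to 42 under the alternatives. The dim-gene filter removed Bcl2l2. Where a call was lost, the cause was not tested.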
